A study of Mus musculus with 6 samples.

Results

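The 10 genes described here encode menin and the core of the machinery that lets a cell pass from G1 into DNA synthesis: the CDK inhibitors Cdkn1a, Cdkn1b, Cdkn2a and Cdkn2c, the D-type cyclins Ccnd1, Ccnd2 and Ccnd3, and their kinases Cdk4 and Cdk6. They were taken by gene symbol from count tables of 48397 genes, and all 10 were found and were among the 23924 genes tested. The libraries hold polyadenylated RNA of isolated islets, a mixed cell population, from wild-type C57B6 mice. After an overnight recovery, islets were cultured for 24 h with 500 ng/mL of recombinant mouse prolactin, the lactogenic pituitary hormone to which beta cells respond in pregnancy, or with DMSO as the control. Each condition had 3 libraries. Whether replicates were separate mice or cultures is not stated in the labels; p-values here therefore describe the spread among these libraries alone, which may be technical.

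D-type cyclins bind CDK4 or CDK6, and the active kinase phosphorylates the retinoblastoma proteins, which frees E2F factors to switch on genes for DNA replication. INK4 inhibitors, such as the products of Cdkn2a and Cdkn2c, bind CDK4 and CDK6 themselves, while CIP/KIP inhibitors, such as p21 from Cdkn1a and p27 from Cdkn1b, bind cyclin and kinase complexes and mainly restrain CDK2. Menin, the product of the tumour suppressor gene Men1, works with KMT2 histone methyltransferases and is known in mouse islets to keep Cdkn1b and Cdkn2c transcribed; lowering of menin has been described as part of the expansion of beta cells in mouse pregnancy, with prolactin and the repressor BCL6 placed upstream. CDK4 and cyclin D2 are the members of their families that mouse beta cells depend on most after birth.

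After a day of prolactin none of these 10 transcripts passed the test: 0 rose, against 0.652% of all tested genes, and 0 fell, against 0.104%, in the quasi-likelihood test of edgeR with a Benjamini-Hochberg threshold of 0.05 (0.757% called in either direction). DESeq2 called 0 of the 10 and 5.71% of the genes it gave an adjusted p, and limma-voom called 0 of the 10 and 0.74% of all tested genes. Taking unadjusted p-values below 0.05, 0 of the 10 were higher, against 7.78% of all tested genes, and 1 was lower (Ccnd3), against 6.68%, or 14.5% in either direction. The fitted changes were small, with a median size of 0.13 on the log2 scale for the 10 genes and 0.12 for all tested genes. The median log2 change was 0.06 for the 10 genes, with 7 positive and 3 negative, and 0.00 for all tested genes, of which 50.1% were positive. The libraries of the conditions did not overlap for 4 of the 10 genes, Men1 and Ccnd1 being higher and Cdkn2c and Ccnd3 lower with prolactin, while this held for 21.6% of all tested genes (11.3% higher and 10.4% lower).

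The islets had responded to the hormone. Transcripts of the STAT5 feedback inhibitor gene Cish stood at 36.5, 42.0 and 40.8 CPM (counts normalised by TMM-scaled library size) in prolactin replicates 1, 2 and 3, and at 8.27, 7.54 and 8.68 CPM in the control replicates. Socs2, Prlr and Tph1 rose as well and Bcl6 fell, each passing edgeR's test over all genes and in every fit without 1 library. Of the cell type lists, beta-cell markers summed to between 119093 and 124568 CPM with prolactin and between 117066 and 143551 CPM in control, with 0 of 10 passing the test. Ins1, Ins2 and Iapp made up most of these sums. Of the 10 markers, 4 had positive and 6 negative changes. Iapp and Slc2a2 were lower in every prolactin library than in any control library, as were 10.4% of all tested genes (log2 change -0.15 and -0.30, edgeR adjusted p = 0.447 and 0.323). Of the other cell type lists, 2 of 10 stromal, 1 of 9 endothelial and 1 of 7 alpha-cell markers rose, 1 of 4 delta and PP cell markers fell, and 0 of 8 macrophage, 0 of 6 duct and 0 of 10 acinar markers passed. Over all tested genes 0.652% rose and 0.104% fell. The marker calls rested on single libraries: leaving out 1 library gave 0 to 4 stromal, 0 to 5 endothelial and 0 to 3 alpha-cell markers called higher (4, 5 and 2 without control replicate 3), and 0 to 1 delta and PP cell markers and 0 to 1 acinar markers called lower. The fit without control replicate 3 called 342 of all tested genes higher, against 156 with all libraries. In such mixed tissue, fewer cells of a type and less RNA per cell cannot be told apart. Libraries held from 230833584 to 264885071 assigned reads with prolactin and from 264466143 to 530296257 in control, the deepest being control replicate 1. Prolactin replicates 2 and 3 were the closest pair, with a median log2 difference of 0.03 between genes of at least 5 CPM, against 0.07 to 0.13 for the other pairs within a condition. Their chi-square was 6.64 per degree of freedom, against 78.2 to 220 for the other pairs within a condition. This measure treats every read as an independent molecule and so covers counting error only. The labels give them as separate samples and they were kept so, with their sum tried as an alternative.

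**Figure D1:**
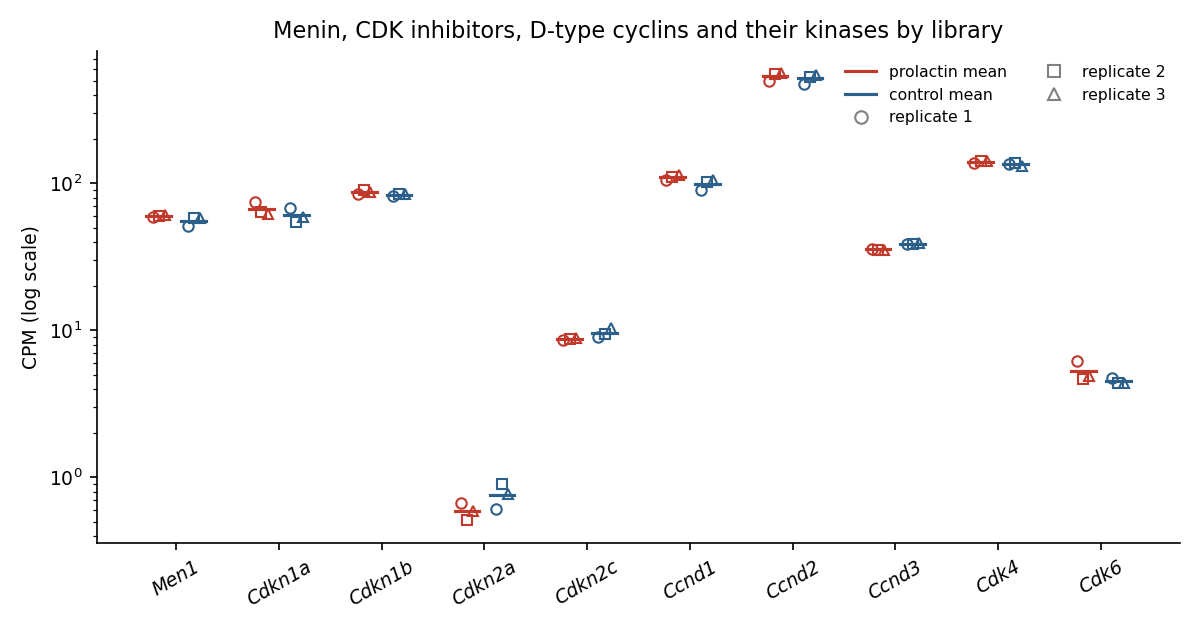
Normalised read counts of the 10 genes in the 3 prolactin and 3 control libraries, in CPM on a log axis. Open symbols are libraries, with a shape for each replicate number, and bars are the means of 3. Prolactin and control means lie close together for every gene, and Cdkn2a is the lowest, under 1 CPM in every library.

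Levels of different genes can be set side by side only per length, as CPM per kilobase of gene model (RPKM). On that scale Ccnd2 was the most abundant of the 10, averaging 57.2 ± 4.0 RPKM with prolactin and 54.9 ± 4.1 RPKM in control (SD, n = 3 each), and Cdk4 came next with 43.0 ± 0.7 and 41.5 ± 1.0 RPKM. Then came Cdkn1a (30.2 ± 3.1 RPKM with prolactin and 27.3 ± 3.1 in control), Ccnd1 (23.4 ± 0.8 and 21.0 ± 1.8), Cdkn1b (19.2 ± 0.6 and 18.4 ± 0.3) and Men1 (17.4 ± 0.3 and 16.2 ± 1.2). These levels divide by the full gene model. Where Ccnd1 is divided by the length it does not share with another gene, its mean over the 6 libraries becomes 29.0 RPKM in place of 22.2. The mean of Cdkn1a is 28.7, so the order of these neighbours depends on the length used (an alternative chosen after seeing the data). Divided in the same way, Cdk4 becomes 51.9 RPKM in place of 42.3. That lies within the range of Ccnd2 on full length, 50.3 to 59.7 RPKM with a mean of 56.0, so the gap between these genes also depends on length. Far lower on this scale stood Ccnd3 (4.05 ± 0.05 and 4.43 ± 0.04 RPKM) and Cdkn2c (3.26 ± 0.06 and 3.56 ± 0.26 RPKM). The scale joins all exons of a gene, and the Ccnd3 model holds 8775 bases, against 2223 for Cdkn1a and 4709 for Ccnd1. In CPM the mean over the 6 libraries was 37.2 for Ccnd3, 63.9 for Cdkn1a, 104.6 for Ccnd1 and 9.16 for Cdkn2c. Which transcripts the islets held was not measured, so the rank of Ccnd3 depends on this length. At the bottom, Cdkn2a had 0.503 ± 0.065 RPKM with prolactin and 0.650 ± 0.122 in control, and Cdk6 had 0.376 ± 0.056 and 0.321 ± 0.014 RPKM. On full length, the order of the 10 genes was the same in each of the 6 libraries. Between neighbours in that order, the ranges over the 6 libraries overlapped only for Ccnd1 with Cdkn1b and for Cdkn2a with Cdk6. Ccnd2 lay above 96.8% of all tested genes in RPKM and Cdk4 above 95.5%, while Cdk6 lay above 32.2%.

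Men1 (chromosome 19, 6334979 to 6340891, mm10, plus strand) gave menin mRNA levels of 58.8, 60.3 and 61.2 CPM in prolactin replicates 1, 2 and 3 and of 51.2, 58.4 and 58.0 CPM in the control replicates. The lowest prolactin library lay just above the highest control library, and control replicate 1 lay apart below the other 5. The log2 change was 0.10 (SE 0.062), a fold of 1.08 with a 95% interval from 0.976 to 1.18 (edgeR adjusted p = 0.482). Without control replicate 1 the log2 change was 0.05. The genes whose pattern over the 6 libraries was most like that of Men1, among 10997 named genes of at least 5 CPM, were Ctdsp1, Ube2r2 and Cog7, whose centred log2 CPM differed from it by a root mean square of 0.010, 0.012 and 0.013 (the median gene differed by 0.12). RefSeq places 3 closely spaced starts at Men1. The 250 bases before the most upstream one are shown because of BCL6, named above for this gene, and STAT5, which carries prolactin receptor signals. Both factors recognise motifs built on TTCNNNGAA. This sequence, chr19:6334729-6334978 on the plus strand of GRCm38.p6, holds none. Its capitals mark a GC box (GGGCGG on either strand, found in 32.7% of 32851 such promoter windows).
Men1: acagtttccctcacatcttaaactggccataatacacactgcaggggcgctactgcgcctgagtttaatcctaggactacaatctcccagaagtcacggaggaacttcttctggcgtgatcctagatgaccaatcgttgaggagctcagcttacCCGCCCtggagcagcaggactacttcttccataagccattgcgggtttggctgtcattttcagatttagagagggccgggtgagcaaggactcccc
The motif TTCNNNGAA was in 0 of the 14 windows available for 8 of the 10 genes, and in 7.02% of all windows. That says only that these letters are not within 250 bases of those starts. Ccnd1 and Ccnd2 have no entry in the table.

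Of the partners of menin, 0 of 12 tested genes passed edgeR's test, and DESeq2 and limma-voom called 0 each. Without adjustment 1 was higher and 1 lower at 0.05, against 7.78% and 6.68% of all tested genes. The median log2 change of the 12 was 0.06. Kmt2a, the methyltransferase gene best known as a menin partner, had 193.3, 208.2 and 213.6 CPM with prolactin and 165.8, 175.4 and 207.7 CPM in control (log2 change 0.16, adjusted p = 0.428), so that the conditions overlapped. Smad3, whose product menin binds in TGF-beta signalling, had the smallest p (log2 change 0.20, adjusted p = 0.256). Rbbp5, a core subunit of the KMT2 complexes, had a log2 change of -0.12 (adjusted p = 0.282).

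The CIP/KIP inhibitor gene Cdkn1b (chromosome 6, 134920401 to 134925513, plus strand), a known menin target, had 84.5, 90.1 and 87.4 CPM with prolactin and 82.1, 84.8 and 84.3 CPM in control. The conditions overlapped, and the fold of 1.04 had an interval from 0.965 to 1.13 (log2 change 0.06, SE 0.050, edgeR adjusted p = 0.634). Cdkn2c (chromosome 4, 109660876 to 109667189, minus strand), the other menin target and the source of the INK4 inhibitor p18, had 8.66, 8.68 and 8.94 CPM with prolactin and 8.96, 9.39 and 10.3 CPM in control. All prolactin libraries were below all control libraries, but the highest prolactin and the lowest control value were nearly equal. Its fold was 0.917, with an interval from 0.815 to 1.03 (log2 change -0.13, SE 0.075, adjusted p = 0.489), and the log2 change was -0.07 without control replicate 3.

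Cdkn1a (chromosome 17, 29090979 to 29100722, plus strand), which encodes the p53-induced inhibitor p21, was the most variable of the abundant members. It had 75.1, 63.8 and 62.3 CPM in prolactin replicates 1, 2 and 3 and 68.4, 54.8 and 59.0 CPM in control replicates 1, 2 and 3, so the highest library of each condition was replicate 1 and the conditions overlapped. The fold of 1.10 had an interval from 0.950 to 1.28 (log2 change 0.14, SE 0.096, edgeR adjusted p = 0.548). The log2 change was 0.05 without prolactin replicate 1, 0.07 without control replicate 2 and 0.24 without control replicate 1. RefSeq gives Cdkn1a 2 starts, which the gene-level counts merge. The window before the upstream start, chr17:29090729-29090978 on the plus strand of GRCm38.p6, is shown because it holds matches to the p53 half-site (capitals), which stood in 7.13% of all promoter windows searched on both strands and in 1 of the 14 windows of the 10 genes.
Cdkn1a: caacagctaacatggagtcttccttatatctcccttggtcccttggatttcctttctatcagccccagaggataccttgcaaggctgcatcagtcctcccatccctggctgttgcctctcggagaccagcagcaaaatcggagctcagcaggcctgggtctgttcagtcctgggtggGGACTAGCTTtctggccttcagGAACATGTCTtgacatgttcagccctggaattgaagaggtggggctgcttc
Of 20 genes of p53 and its targets, 0 passed edgeR's test and limma-voom called 0. Without adjustment 5 of them were higher and 2 lower at the 0.05 level, against 7.78% and 6.68% of all tested genes. DESeq2 called 2 higher, Trp53 and Gdf15 (DESeq2 adjusted p = 0.0165 and 0.0045), against 776 of the 18913 genes it gave an adjusted p. In either direction it called 5.71% of those genes. The list's median log2 change was 0.08. Trp53 itself, the p53 gene, had 41.8, 42.0 and 40.5 CPM with prolactin and 34.9, 34.1 and 36.8 CPM in control, with no overlap between the conditions (log2 change 0.23, SE 0.051, edgeR adjusted p = 0.083). Such a separation, with prolactin higher, held for 11.3% of all tested genes. In edgeR, Trp53 passed without control replicate 3. That fit called 342 of all tested genes higher and 234 lower, against 156 and 25 with all libraries. The log2 change was 0.34 for Gdf15, a secreted stress protein gene that p53 can induce (edgeR adjusted p = 0.101). For Pmaip1, a pro-apoptotic p53 target, it was 0.30 (edgeR adjusted p = 0.283).

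Cdkn2a (chromosome 4, 89274471 to 89294653, minus strand) encodes the INK4 inhibitor p16 and, from another first exon and reading frame, the p53 activator p19ARF. It was the least abundant of the 10 in CPM, with 154, 119 and 157 reads in prolactin replicates 1, 2 and 3 and 329, 244 and 207 reads in the control replicates. These were 0.665, 0.512 and 0.593 CPM with prolactin and 0.613, 0.898 and 0.773 CPM in control. Prolactin replicate 1 lay above control replicate 1, so the conditions overlapped, and the fold of 0.778 had the widest interval of the 10, from 0.579 to 1.04 (log2 change -0.36, SE 0.19, edgeR adjusted p = 0.421). Leaving out 1 library gave log2 changes from -0.50 without control replicate 1 to -0.23 without control replicate 2. Counts per gene cannot part the 2 products. The windows before both RefSeq starts are shown, the upstream one at chr4:89294620-89294869 and the downstream one at chr4:89282193-89282442 of GRCm38.p6, both on the minus strand. Capitals mark the single match to an E2F motif (TTTCCCGC, TTTCGCGC, TTTGCCGC or TTTGGCGC on either strand), which stood in 1.86% of all windows and in 1 of the 14 windows of the 10 genes.
Cdkn2a upstream start: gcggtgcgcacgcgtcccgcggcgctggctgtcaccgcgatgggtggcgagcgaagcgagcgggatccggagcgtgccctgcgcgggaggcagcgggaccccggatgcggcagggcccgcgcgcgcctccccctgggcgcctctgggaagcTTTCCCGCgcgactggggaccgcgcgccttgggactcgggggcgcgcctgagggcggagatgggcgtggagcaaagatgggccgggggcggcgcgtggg
Cdkn2a downstream start: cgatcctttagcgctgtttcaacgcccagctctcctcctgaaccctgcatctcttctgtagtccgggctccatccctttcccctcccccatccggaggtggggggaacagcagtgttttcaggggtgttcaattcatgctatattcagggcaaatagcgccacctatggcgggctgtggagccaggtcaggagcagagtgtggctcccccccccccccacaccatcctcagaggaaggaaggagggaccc
Of 4 other inhibitor genes of this kind, none passed: edgeR, DESeq2 and limma-voom called 0, and 0 reached 0.05 without adjustment. The median log2 change was 0.01. For Cdkn2b, the INK4 gene for p15 beside Cdkn2a, it was 0.15 (edgeR adjusted p = 0.401), and for Cdkn2d, the gene for p19INK4D, -0.13 (adjusted p = 0.554). Cdkn3, a phosphatase gene that inhibits CDK2, was under 1 CPM in both conditions (log2 change -0.65, adjusted p = 0.422).

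Ccnd2 (chromosome 6, 127125162 to 127152193, minus strand), the main D-type cyclin of mouse beta cells, had 494.3, 557.6 and 562.0 CPM in prolactin replicates 1, 2 and 3 and 473.0, 529.2 and 547.3 CPM in the control replicates. In both conditions replicate 1 was the lowest, and the ranges overlapped. The fold was 1.04 with an interval from 0.919 to 1.18 (log2 change 0.06, SE 0.079, edgeR adjusted p = 0.787), and leaving out 1 library gave log2 changes from -0.00059 to 0.11. Ccnd1 (chromosome 7, 144929931 to 144939925, minus strand), for the cyclin D1 that mitogens induce in many cell types, had 106.1, 111.2 and 113.3 CPM with prolactin and 89.7, 102.0 and 105.5 CPM in control. Every prolactin library was above every control library, by less than 1 CPM at the closest, and the fold of 1.11 had an interval from 0.999 to 1.24 (log2 change 0.15, SE 0.069, adjusted p = 0.349). Its log2 change was 0.09 without control replicate 1.

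Ccnd3 (chromosome 17, 47505051 to 47599691, plus strand), the third D-type cyclin, had the smallest p of the 10 genes. It stood at 36.0, 35.3 and 35.3 CPM with prolactin and at 38.6, 38.7 and 39.3 CPM in control, with the tightest replicates of the 10 and no overlap between conditions. The fold of 0.915 had an interval from 0.852 to 0.984 before any correction for the number of genes tested, and the change did not pass after it (log2 change -0.13, SE 0.046, unadjusted p = 0.0216, edgeR adjusted p = 0.257). The genes most like Ccnd3 in pattern were Marveld2, Pitrm1 and Ints9, at a root mean square difference of 0.010, 0.013 and 0.013 in centred log2 CPM over the 6 libraries (the median gene differed by 0.098).

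**Figure D2:**
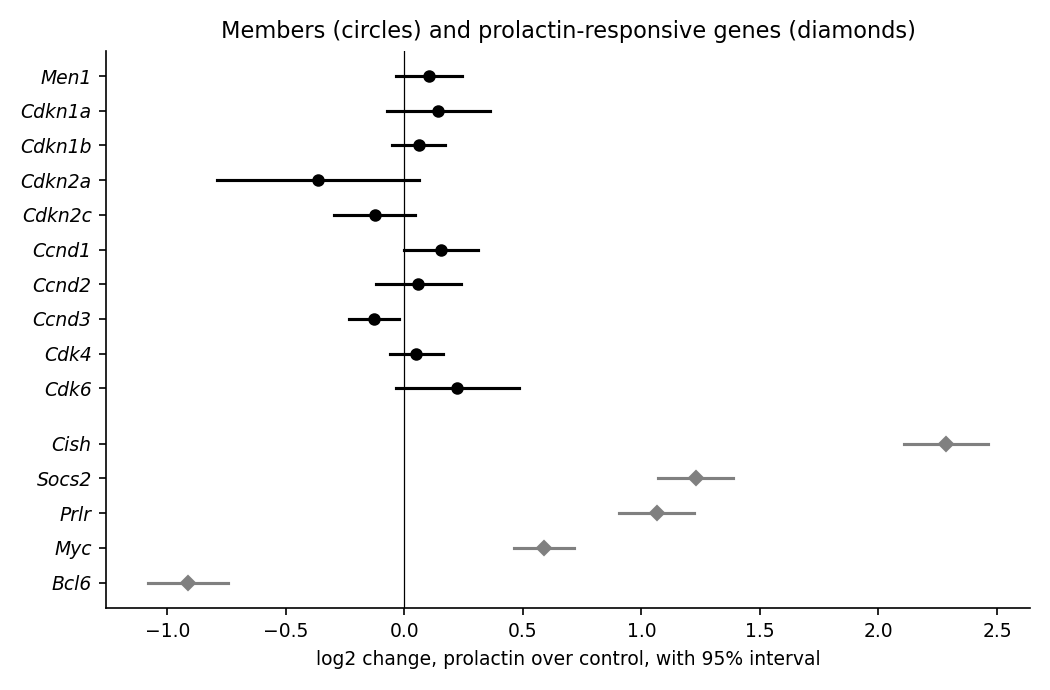
Log2 change of prolactin over control with its 95% interval from the edgeR fit, unadjusted for the number of genes. Circles are the 10 genes and diamonds are 5 genes that passed the test. Of the 10, the interval of Ccnd3 alone leaves out 0, and Cdkn2a has the widest one, while Cish, Socs2, Prlr and Myc lie to the right and Bcl6 to the left.

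The make-up of the D-type cyclin pool was measured within each library, as shares of reads per kilobase. Ccnd2 held 66.4%, 68.2% and 68.0% of the pool in prolactin replicates 1, 2 and 3 and 68.2%, 68.3% and 68.4% in the control replicates. The conditions did not overlap, but the highest prolactin and the lowest control share both round to the same value. The mean share was 0.791 percentage points lower with prolactin, 67.5% ± 1.0 against 68.3% ± 0.1 in control (SD, n = 3 each; two-sided exact permutation test p = 0.1, the smallest this design allows), and 0.21 points lower without prolactin replicate 1. The separation depends on the scaling to length: in shares of plain counts the difference was -0.272 points (exact permutation test p = 0.9). Ccnd1 held 27.7% ± 0.7 with prolactin and 26.2% ± 0.3 in control, and Ccnd3 4.80% ± 0.33 and 5.53% ± 0.38. These shares divide by gene models of 4709 bases for Ccnd1, 9409 for Ccnd2 and 8775 for Ccnd3. Of the Ccnd1 model, 23.4% is shared with a gene on the opposite strand. On unshared length the mean of Ccnd1 over the 6 libraries is 29.0 RPKM in place of 22.2. The level of each share therefore depends on the lengths used, and shares on unshared length were not computed.

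Of the kinases, Cdk4 (chromosome 10, 127063534 to 127067920, plus strand) was among the steadiest genes, with 137.3, 140.9 and 141.3 CPM with prolactin and 135.4, 138.2 and 131.4 CPM in control. Prolactin replicate 1 lay below control replicate 2, so the conditions overlapped. Its fold was 1.04 with an interval from 0.958 to 1.12 (log2 change 0.05, SE 0.050, edgeR adjusted p = 0.697). The window before its RefSeq start, chr10:127063285-127063534 on the plus strand of GRCm38.p6, is shown because it holds 4 E-boxes (CACGTG, in capitals), the motif that MYC and related factors bind, and Myc mRNA rose (values given with the transcription factors). An E-box stood in 6.02% of all windows and in 2 of the 14 windows of the 10 genes (those of Cdk4 and Cdk6), and 4 or more stood in 7 of 32851.
Cdk4: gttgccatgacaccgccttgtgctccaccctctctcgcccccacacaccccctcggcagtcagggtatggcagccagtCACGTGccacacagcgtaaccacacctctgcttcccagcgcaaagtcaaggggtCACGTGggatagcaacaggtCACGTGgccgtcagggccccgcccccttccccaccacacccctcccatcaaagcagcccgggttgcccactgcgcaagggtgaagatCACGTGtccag
Cdk6 (chromosome 5, 3341485 to 3531008, plus strand), for the kinase that mouse beta cells carry little of, had 6.15, 4.69 and 4.92 CPM in prolactin replicates 1, 2 and 3 and 4.72, 4.41 and 4.36 CPM in the control replicates. Prolactin replicate 1 stood apart above the other 5 libraries. The fold of 1.17 had an interval from 0.976 to 1.40 (log2 change 0.22, SE 0.11, edgeR adjusted p = 0.415). Without prolactin replicate 1 the log2 change was 0.09. The sums of stromal and of duct markers were also highest in that library, though single markers such as Thy1, Rgs5 and Krt7 were not. The 10 stromal markers summed to 888.6, 721.1 and 727.1 CPM with prolactin and 526.0, 513.0 and 350.0 CPM in control, none was at 0, and all 10 had positive changes, of which 2 passed. The 6 duct markers summed to 1760, 1224 and 1224 CPM with prolactin and 1524, 1264 and 953.3 CPM in control, and 0 passed. The part of either list in the Cdk6 values was not tested. Cdk6 made up 1.03%, 0.767% and 0.803% of the Cdk4 and Cdk6 reads per kilobase with prolactin and 0.803%, 0.735% and 0.766% in control (two-sided exact permutation test p = 0.3, smallest possible 0.1), a difference of 0.0986 points per kilobase and of 0.401 points in shares of plain counts.

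**Figure D3:**
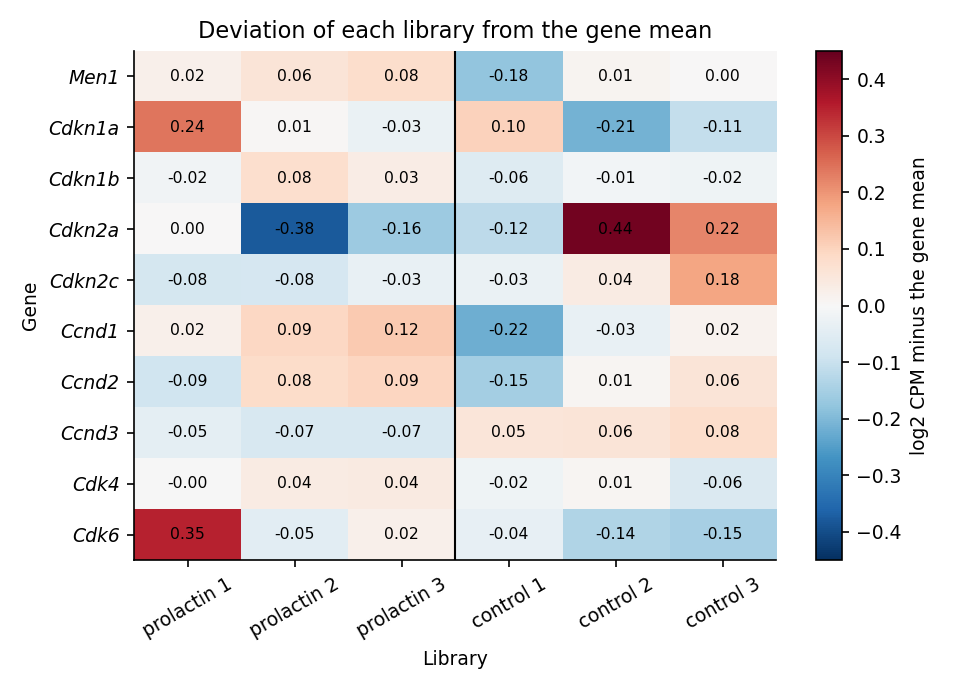
Log2 CPM of each gene in each library minus the gene's mean over the 6 libraries, prolactin libraries on the left. Red is above and blue below the mean. Cdk6 and Cdkn1a are highest in prolactin replicate 1, Men1, Ccnd1 and Ccnd2 are lowest in control replicate 1, and Cdkn2a spreads most.

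The balance of brakes and accelerators was taken as the log2 ratio of the summed reads per kilobase of the 4 CDK inhibitors to those of the 3 D-type cyclins. It was -0.50, -0.74 and -0.78 in prolactin replicates 1, 2 and 3 and -0.49, -0.79 and -0.78 in control replicates 1, 2 and 3. The inhibitor mRNAs together were thus below the cyclin mRNAs in every library. Libraries numbered 1 stood above the other 4, and the conditions overlapped. Prolactin averaged -0.67 ± 0.15 and control -0.69 ± 0.17 (SD, n = 3 each), a difference of 0.01 (two-sided exact permutation test p = 0.9), which turned negative without control replicate 2 or 3 (-0.04 and -0.03) or without prolactin replicate 1 (-0.07).

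**Figure D4:**
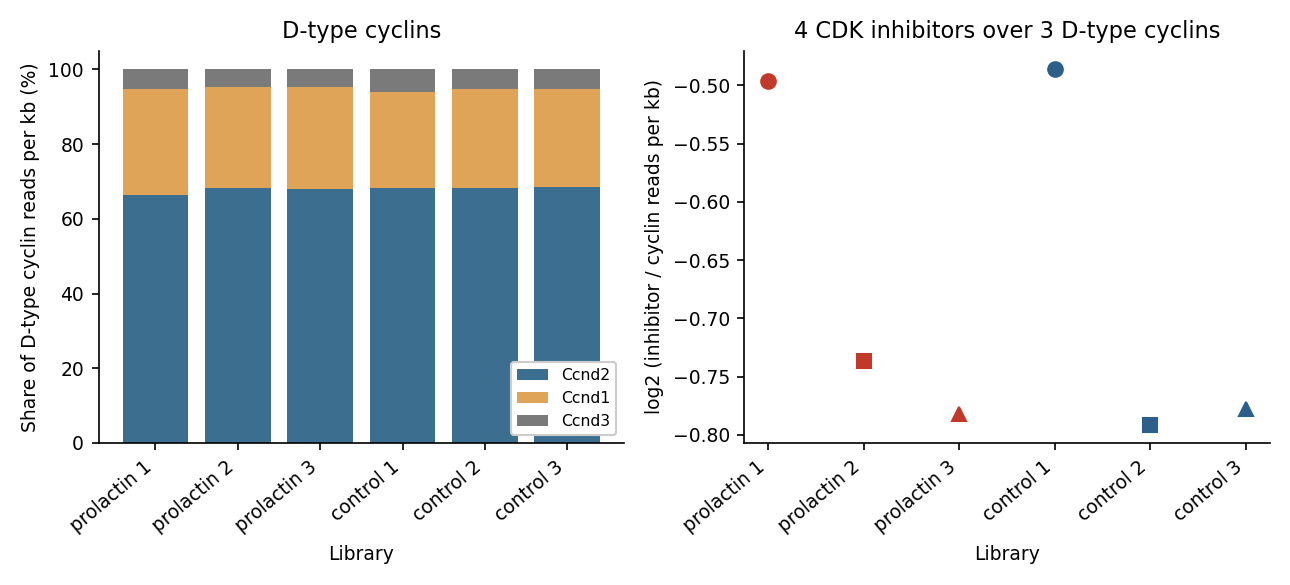
Left, share of each D-type cyclin in the reads per kilobase of all 3, in percent, for each library. Right, log2 ratio of the 4 inhibitors to the 3 cyclins, red for prolactin and blue for control, on an axis that does not start at 0. Ccnd2 holds about the same share throughout, from 66.4% to 68.4%, and the libraries numbered 1 have the highest ratio in both conditions.

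Among 13 transcription factor genes known to act on one or more of them, 1 rose and 1 fell in edgeR's test, and both did so in each fit without 1 library; the other 11 did not pass. Bcl6, a repressor for which Ccnd2 and Cdkn1a are known targets, fell to 11.8, 11.2 and 11.1 CPM with prolactin, against 19.9, 20.7 and 23.5 CPM in control (fold 0.531, log2 change -0.91, SE 0.074, edgeR adjusted p = 0.00079). Myc, which is known to induce Ccnd2 and Cdk4 and to repress Cdkn1a, rose to 23.5, 22.5 and 22.3 CPM with prolactin, against 15.5, 15.3 and 14.6 CPM in control (log2 change 0.59, SE 0.056, adjusted p = 0.0023). The log2 change of Stat5a was -0.07 (adjusted p = 0.78) and that of Stat5b 0.08 (adjusted p = 0.773), the pair of factors that carry the signal of the prolactin receptor, named here after their values were seen. The list's median log2 change was 0.04.

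Downstream, 0 of 13 genes of retinoblastoma proteins, E2F factors and their DP partners passed edgeR's test. DESeq2 called 2 of them lower, E2f2 and E2f6 (DESeq2 adjusted p = 0.0148 and 0.039), and limma-voom 0. Of the 18913 genes with a DESeq2 adjusted p, 303 were called lower, and 5.71% in either direction. Without adjustment 2 were lower at 0.05, against 6.68% of all tested genes. The list's median log2 change was -0.12, with 10 negative (-0.05 and 8 without control replicate 3). E2f2, an activator E2F, had 8.85, 9.73 and 9.53 CPM with prolactin and 10.4, 12.4 and 13.4 CPM in control (log2 change -0.36, edgeR adjusted p = 0.147). E2f6, a repressor of the family, had 29.5, 29.7 and 31.3 CPM with prolactin and 33.9, 36.6 and 35.1 CPM in control (log2 change -0.22, edgeR adjusted p = 0.106). Both were lower in every prolactin library than in any control library. Of the 13 genes, 3 were separated in this way as lower and 2 as higher, against 10.4% and 11.3% of all tested genes. E2f5 had a log2 change of -0.14 (edgeR adjusted p = 0.359).

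Of 7 genes of the cyclin E and CDK2 step and of the CDK-activating kinase, 0 passed, and DESeq2 and limma-voom called 0 each. Without adjustment 1 was lower at 0.05, against 6.68% of all tested genes. The median log2 change was -0.03. Ccnh, the cyclin of the CDK-activating kinase, had the smallest p, at a log2 change of -0.19 (edgeR adjusted p = 0.2). For the cyclin E genes the log2 change was -0.19 in Ccne1 (adjusted p = 0.474) and -0.14 in Ccne2 (adjusted p = 0.443). Of 13 genes for the ubiquitin ligases and kinase that set the turnover of p27 and of D-type cyclins, 0 passed (DESeq2 and limma-voom 0 each, and 0 without adjustment at 0.05). The median was -0.02. Cks1b, the cofactor by which SKP2 recognises p27, had a log2 change of 0.15 (adjusted p = 0.36). Ambra1, the adaptor that sends D-type cyclins for degradation, also had 0.15 (adjusted p = 0.4). It passed without control replicate 3, where 342 of all tested genes were called higher in place of 156. Ddb1, a subunit of the same ligase, had 0.09 (adjusted p = 0.521).

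Of 20 genes of DNA replication and mitosis, 0 passed, 19 had negative changes and the median log2 change was -0.18. DESeq2 called 2 lower, Ccnb1 and Bub1 (DESeq2 adjusted p = 0.0102 and 0.047), and limma-voom 0. Over all 18913 genes with a DESeq2 adjusted p, 303 were called lower, and 5.71% in either direction. Without adjustment 5 were lower at 0.05, against 6.68% of all tested genes. Mki67, Ccnb1 and Bub1 had log2 changes of -0.62, -0.63 and -0.64 (edgeR adjusted p = 0.21, 0.153 and 0.238). Control replicate 3 stood apart, with a mean log2 CPM of the list 0.42 above its mean over the libraries, against -0.20 to 0.02 in the other 5. The same library had the most acinar marker RNA, these markers summing to 1774, 786.7 and 814.5 CPM with prolactin and 1363, 469.9 and 2717 CPM in control, and the least stromal marker RNA (values given with Cdk6). Their part in the replication values was not tested. Without control replicate 3, 10 of 20 changes were negative and the median was -0.01.

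**Figure D5:**
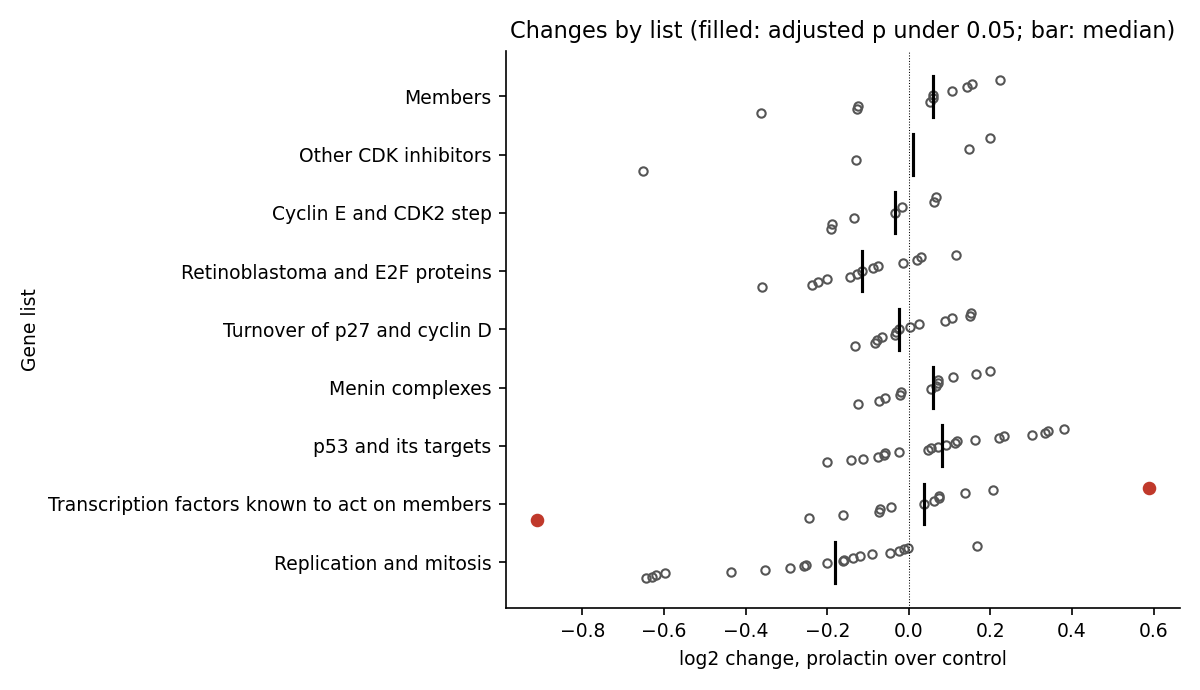
Log2 change of prolactin over control for every tested gene of the 10-gene set and of 8 lists of related genes. Each circle is a gene, filled where the edgeR adjusted p was under 0.05, and bars are list medians. Bcl6 on the left and Myc on the right are the filled ones, and most replication and mitosis genes lie to the left of 0.

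Some of these values rest on part of a gene. Reads were counted without strand, and Ccnd1 shares 1100 exonic bases (23.4% of its length) with Oraov1 on the opposite strand, while Cdk4 shares 604 bases (18.6%) with Tspan31. Ccnd2, Ccnd3 and Cdk6 share between 2.63% and 4.11% of their length with each gene whose exons overlap theirs. For Men1, Cdkn1a, Cdkn1b, Cdkn2a and Cdkn2c the gene models overlap no other gene. The authors' deposited table holds the same DESeq2 fit as the one given above, with log2 changes equal within 3.87e-09, and is no second line of evidence. None of the 10 genes was called in the authors' deposited table, with Cdk6 having the smallest adjusted p of 0.288 at a log2 change of 0.22, against 1079 called of 18913 genes with an adjusted p.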

How the data were processed

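RNA-seq of 6 islet libraries gave the data. Per the file headers, the authors obtained raw gene counts with featureCounts 2.0.3 from GENCODE vM10, joining exons by gene name. Build mm10, SAMtools 1.21, Subread 2.1.0 and DESeq2 come from the submitters' processing notes, and no source used here names an aligner. The featureCounts command in the headers has no strand option, none for reads that overlap several genes and none for counting pairs, and even numbers made up 53.9% to 56.3% of counts from 1 to 20, so mates may be counted separately and counts overstate fragments. The authors' deposited table holds log2 changes with standard errors, a test score, p-values and a mean signal per gene.

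Counts were fitted with edgeR 4.0.16 (R 4.3.3): TMM scaling, expression filter (minimum count 10, minimum total 15), condition as the only term, two-sided quasi-likelihood test of prolactin over control and Benjamini-Hochberg adjustment over 23924 genes, threshold 0.05. Standard errors come from the test statistic and intervals from its t distribution. Shares were compared by exact permutation over libraries. The members, the lists, the rule for named genes (all members; in other lists those that passed or the 3 with the smallest p; the prolactin response genes; the 3 most similar patterns for Men1 and for the member with the smallest p) and the alternatives were chosen with earlier results of these data known. All 181 list entries matched by symbol. The fit was tested on simulated data. Promoter windows are from RefSeq on GRCm38.p6, the assembly of mm10; sequences of 14 windows of 8 members were cut to the 250 bases before the start.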

Additional observations from a re-analysis of the deposited data

How the results depend on the processing

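No member passed the test in any of 15 alternative fits, whose smallest adjusted p for a member was 0.131 (Ccnd1 without control replicate 3). Of 149 member values, 148 kept their direction; that of Ccnd2 turned to -0.00059 without control replicate 1. Under the filter of 1 CPM in 3 libraries Cdkn2a was not tested. The counts over all tested genes moved far more, from 156 higher and 25 lower to 470 and 127 with no filter, 776 and 303 with DESeq2, 42 and 2 with prolactin replicates 2 and 3 summed, and 46 lower with the 1 CPM filter; the causes were not tested. Leaving out 1 library gave from 39 to 342 higher and from 1 to 234 lower. With the replicate number as a block 464 were higher and 134 lower, and 0 members either way. In that edgeR fit unadjusted p was below 0.05 for Ccnd1 (0.0153), Cdkn1a (0.0205) and Cdk6 (0.04995), all higher, and for Ccnd3 (0.0264), lower. Deviations of same-numbered libraries correlated at 0.56, 0.36 and 0.08, and prolactin replicate 3 correlated best with control replicate 2 (0.39). Prolactin replicates 2 and 3 were the closest pair within a condition, so these values cannot decide whether same-numbered libraries were paired. The labels name no pairing, and the main fit used none. Without 1 library the differences ranged from -1.13 to -0.21 points for the Ccnd2 share, from 0.017 to 0.148 points for the Cdk6 share and from -0.07 to 0.11 for the inhibitor to cyclin ratio, which was -0.040, -0.033 and -0.074 without control replicate 2, control replicate 3 and prolactin replicate 1. Limits: with 3 libraries a condition an exact test cannot go below p = 0.1. Cdkn2a rests on 119 to 329 reads. Counts are per gene and say nothing of protein, isoform or cell type. In plain counts, not per length, the differences were -0.272 points for the Ccnd2 share (exact permutation p = 0.9, against 0.1 per length), 0.401 points for the Cdk6 share and 0.02 for the ratio. DESeq2 size factors, upper-quartile scaling, limma-voom and halved counts changed no direction and no call of a member.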
